A study of Mus musculus with 12 samples.

Results

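The motile cilia genes *Foxj1*, *Rsph1*, *Tekt1*, *Dynlrb2*, *Dnah1*, *Dnah2*, *Dnah3*, *Dnah5*, *Dnah9* and *Dnah11* were examined in poly(A) RNA-seq counts of mouse hippocampus. They were chosen by gene symbol, as genes of the ciliated ependyma and as axonemal dynein heavy chains other than *Dnah6*, and make up 10 of the 37991 genes in the count files. The choice was made with earlier results of these data known. All 10 members were among the 16399 genes with enough reads to be tested. The study asked which hippocampal transcripts depend on *Gadd45a* after aversive learning. Hippocampi were collected 1 h after the passive avoidance (PA) test from 6 mice labelled *Gadd45a*-WT and 6 mice labelled *Gadd45a*-KO, all C57BL/6N and all trained. The KO animals carried the constitutive *Gadd45a*-/- allele, in which a neomycin cassette stands in place of the early exons while the last exon is still present, and the WT animals were wild-type siblings from heterozygous parents. The labels give an age of 6 to 7 months. The methods of the paper describe male mice and a younger age range. Each library came from a separate mouse, and no untrained animals were included here.

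Motile cilia beat because rows of dynein arms slide the microtubule doublets of the axoneme past each other. In the brain they are carried mainly by the multiciliated ependymal cells that line the ventricles and move cerebrospinal fluid, and the hippocampus lies against the lateral ventricle. The transcription factor Foxj1 switches on the genes of the motile axoneme in such cells. Neurons and astrocytes carry a primary cilium instead, which lacks dynein arms.

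The targeted gene was examined first. *Gadd45a* stood at 2.19 to 3.43 CPM (the reads on a gene relative to all gene reads of its library, with the TMM factors of edgeR) in the libraries labelled *Gadd45a*-WT and at 20.5 to 23.1 CPM in those labelled *Gadd45a*-KO (a difference of 3.06 ± 0.09 (SE) on the log2 scale, with an adjusted p of 1.33e-10 by edgeR's quasi-likelihood test, Benjamini-Hochberg). The reads on the targeted gene therefore went against the labels, counts per gene do not separate the exons, and libraries are named here by their labels throughout. Between 44594261 and 55540601 reads per library fell on genes. Of the libraries labelled *Gadd45a*-KO, replicates 2 and 3 stood apart, with a sum over 8 thalamic markers of 371 and 581 CPM against 124 to 166 CPM in the other 10 libraries. In replicate 3 the sum over 6 oligodendrocyte markers was 7309 CPM, against 2316 to 3736 CPM in the other libraries. Hippocampal neuron markers were abundant in all 12 libraries, with sums of 5902 to 7294 CPM over 6 genes led by *Camk2a*, *Zbtb20* and *Neurod6*. All 8 markers of ciliated ependyma had reads in every library, from 10 to 589 reads per gene, so that a ciliated cell signal was measurable in each of them.

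None of the 10 members differed between the labels at 1% FDR. The count of members lower in the KO label was 0, against 2.62% of all tested genes, and the count higher was 0, against 0.0244% of all tested genes (edgeR quasi-likelihood test with Benjamini-Hochberg adjustment over all tested genes). DESeq2 also called 0 members. At an unadjusted p under 0.05, edgeR found 1 member lower (*Dnah9*) and 1 higher (*Tekt1*), where 9.35% and 4.34% of all tested genes were lower and higher. For every member the values under the 2 labels overlapped. Among all tested genes, 3.12% were lower and 0.183% higher in the KO label without overlap. The median log2 fold change of the members was 0.14, beside 0.00 over all tested genes. That median and the direction of several members rested on KO replicates 2 and 3. With both left out, 9 members had a negative and 1 a positive log2 fold change, the median was -0.10, and again no member passed 1% FDR.

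**Figure D1:**
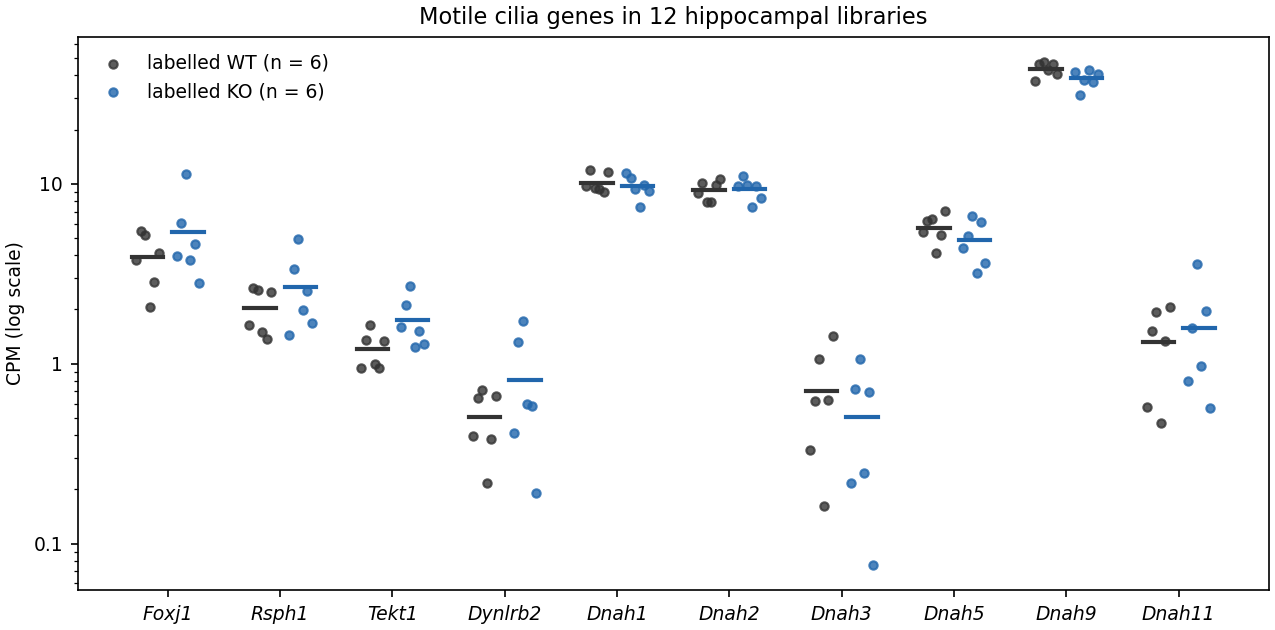
CPM (log axis) of the 10 members in each of the 12 libraries, with libraries labelled WT in black, libraries labelled KO in blue and bars at the mean of 6. The points of both labels overlap for every gene, and *Foxj1* reaches its highest value of 11.4 CPM in 1 library labelled KO.

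*Foxj1* (ENSMUSG00000034227, chromosome 11 of NCBIM37, 116192018 to 116196713, minus strand), the regulator of the motile cilia programme, ranged from 2.06 to 5.45 CPM in the libraries labelled WT, with a median of 3.95 CPM. Under the KO label it ranged from 2.81 to 11.4 CPM with a median of 4.29 CPM, from 148 to 589 reads. KO replicate 3 held the highest level at 11.4 CPM and KO replicate 2 the next at 6.02 CPM, while WT replicate 4 held the lowest. The remaining libraries of both labels lay within the same range. The means were 3.91 ± 1.32 and 5.42 ± 3.10 CPM (SD, n = 6 each), and the log2 fold change was 0.48 (95% interval -0.20 to 1.15; adjusted p = 0.578, edgeR). Without KO replicates 2 and 3 it was -0.04 (standard error 0.23). In these bulk samples, fewer ciliated cells and less RNA per ciliated cell cannot be told apart.

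The structural genes of the axoneme with short transcripts followed the same library order at its upper end. *Rsph1* (ENSMUSG00000024033, chromosome 17, 31391964 to 31414301), which encodes a protein of the radial spoke head, ranged from 1.37 to 2.63 CPM under the WT label (median 2.07) and from 1.45 to 4.93 CPM under the KO label (median 2.25). *Tekt1* (ENSMUSG00000020799, chromosome 11, 72158224 to 72175944), a tektin that forms filaments inside the doublet wall, ranged from 0.946 to 1.63 CPM (median 1.16) and from 1.23 to 2.70 CPM (median 1.56). *Dynlrb2* (ENSMUSG00000034467, chromosome 8, 119028915 to 119039796), a roadblock-type dynein light chain, ranged from 0.216 to 0.716 CPM (median 0.521) and from 0.190 to 1.73 CPM (median 0.591), on only 10 to 90 reads. KO replicates 3 and 2 were the highest and second highest libraries for all of *Foxj1*, *Rsph1*, *Tekt1* and *Dynlrb2*. At the lower end the order differed: *Dynlrb2* was lowest in KO replicate 6, *Rsph1* in WT replicate 5 and *Tekt1* in WT replicate 1.

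Of these genes, *Tekt1* came nearest to a difference. All 6 libraries labelled KO lay above the mean of those labelled WT, 2 of them above every WT library, and the log2 fold change was 0.54 (95% interval 0.09 to 0.98; adjusted p = 0.233, edgeR; two-sided exact permutation p = 0.0498, unadjusted). It fell to 0.23 (standard error 0.17) without KO replicates 2 and 3. The log2 fold changes of *Rsph1* and *Dynlrb2* were 0.39 (95% interval -0.22 to 0.99) and 0.68 (95% interval -0.27 to 1.63), with adjusted p of 0.628 and 0.569 from edgeR. Without the same pair of libraries they turned to -0.09 and -0.18. The upper ends of the intervals, 1.15 for *Foxj1* and 1.63 for *Dynlrb2* on the log2 scale, show that sizeable differences were not excluded at this spread between libraries.

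Among the outer arm dynein heavy chains, which drive the beat frequency, *Dnah9* was by far the most abundant and the steadiest. *Dnah9* (ENSMUSG00000056752, chromosome 11, 65644784 to 65982053) ranged from 37.0 to 47.5 CPM under the WT label (median 44.4) and from 31.0 to 43.1 CPM under the KO label (median 39.3), from 1409 to 2589 reads. All 6 libraries labelled KO lay below the WT mean and 2 below every WT library, yet the labels overlapped. The log2 fold change was -0.17 (95% interval -0.34 to -0.00372; adjusted p = 0.350, edgeR; two-sided exact permutation p = 0.0887, unadjusted). It was -0.09 without KO replicates 2 and 3 and, with a smooth offset for exonic length in each library, -0.03. KO replicate 2, high in *Foxj1*, was the lowest library for *Dnah9*, at 31.0 CPM.

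*Dnah5* (ENSMUSG00000022262, chromosome 15, 28133507 to 28401800), the other core outer arm motor, ranged from 4.11 to 7.01 CPM under the WT label (median 5.80) and from 3.21 to 6.59 CPM under the KO label (median 4.74). WT replicate 6 was the highest library and KO replicate 4 the lowest. The log2 fold change was -0.24 (95% interval -0.60 to 0.13; adjusted p = 0.632, edgeR). *Dnah11* (ENSMUSG00000018581, chromosome 12, 119116455 to 119437516), an outer arm chain of the proximal cilium, ranged from 0.469 to 2.06 CPM (median 1.42) and from 0.570 to 3.58 CPM (median 1.27). Here KO replicate 3 was again the highest library and WT replicate 4 the lowest. The log2 fold change of *Dnah11* was 0.26 (95% interval -0.68 to 1.20; adjusted p = 0.879, edgeR) and turned to -0.16 without KO replicate 3.

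The inner arm heavy chains, which shape the waveform, split into a steady and a variable kind. *Dnah1* (ENSMUSG00000019027, chromosome 14, 32073561 to 32137082) ranged from 8.97 to 11.9 CPM under the WT label (median 9.58) and from 7.47 to 11.5 CPM under the KO label (median 9.56). *Dnah2* (ENSMUSG00000005237, chromosome 11, 69234311 to 69362612) ranged from 7.95 to 10.7 CPM (median 9.36) and from 7.44 to 11.0 CPM (median 9.71). Both were steady across all libraries, with log2 fold changes of -0.07 (95% interval -0.29 to 0.15) and 0.02 (95% interval -0.20 to 0.23) and adjusted p of 0.857 and 0.970 from edgeR. *Dnah3* (ENSMUSG00000052273, chromosome 7, 127066231 to 127238691) was the scarcest and most variable member, from 0.162 to 1.42 CPM under the WT label (median 0.625) and from 0.0760 to 1.06 CPM under the KO label (median 0.470), on 4 to 71 reads. WT replicate 6 was its highest library and KO replicate 6 its lowest. Its log2 fold change of -0.50 had a 95% interval from -1.64 to 0.65 (adjusted p = 0.790, edgeR) and was -1.22 (standard error 0.58) without KO replicates 2 and 3.

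**Figure D2:**
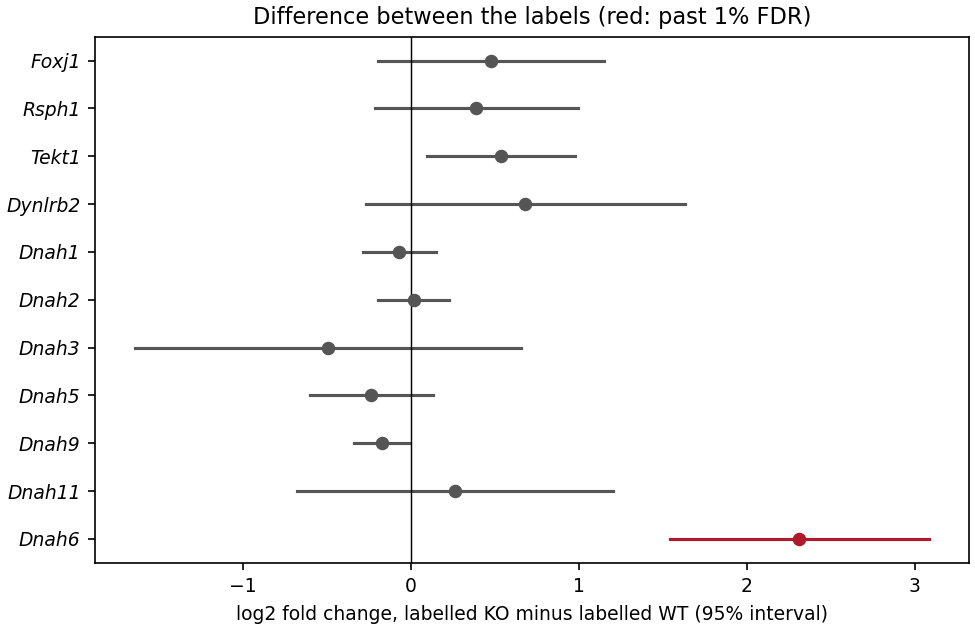
Log2 fold change, libraries labelled KO minus libraries labelled WT, with 95% intervals from the edgeR fit on 6 libraries each, for the 10 members and *Dnah6*. The members lie between -0.50 and 0.68 and none passes 1% FDR, whereas *Dnah6* (red), which was kept out of the members, stands at 2.31.

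Levels were compared between genes per length of transcript. Coverage can decline away from the 3′ end in poly(A)-selected libraries, and how far this lowers the values of the long dynein transcripts against those of the short genes was not tested. In reads per kilobase of annotated exon, scaled as CPM (RPKM, mean ± SD over 12 libraries), *Dnah9* stood highest at 2.56 ± 0.30, followed by *Rsph1* at 2.01 ± 0.88, *Foxj1* at 1.78 ± 0.92 and *Dynlrb2* at 1.32 ± 0.91. *Tekt1* at 0.909 ± 0.32, *Dnah1* at 0.770 ± 0.10 and *Dnah2* at 0.627 ± 0.077 came next. *Dnah5* at 0.337 ± 0.078, *Dnah11* at 0.103 ± 0.063 and *Dnah3* at 0.0493 ± 0.034 were lowest. The SD ranges of neighbours in this order overlapped, except between *Dnah2* and *Dnah5* and between *Dnah5* and *Dnah11*. The 3 outer arm chains, which are alike in length, differed from each other beyond their spread, in the order *Dnah9*, *Dnah5* and *Dnah11*.

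Several members varied widely between libraries. Over all 12 libraries the highest library exceeded the lowest 5.52-fold for *Foxj1*, 3.61-fold for *Rsph1*, 2.85-fold for *Tekt1*, 9.13-fold for *Dynlrb2*, 7.65-fold for *Dnah11* and 18.7-fold for *Dnah3*. By contrast *Dnah1*, *Dnah2* and *Dnah9* varied only 1.60-fold, 1.48-fold and 1.54-fold. The biological coefficient of variation within labels (BCV, the spread that edgeR estimates beyond counting error) was 0.369 for *Foxj1*, 0.503 for *Dynlrb2*, 0.518 for *Dnah11* and 0.639 for *Dnah3*, beside a median of 0.0788 over all tested genes. Only 1.30% of tested genes had a BCV at or above that of *Foxj1*, and 0.177% at or above that of *Dnah3*. *Dnah5* stood between, with a BCV of 0.205 that 7.52% of tested genes reached. For *Dnah9* the BCV was 0.0962, and 38.2% of tested genes reached it.

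**Figure D3:**
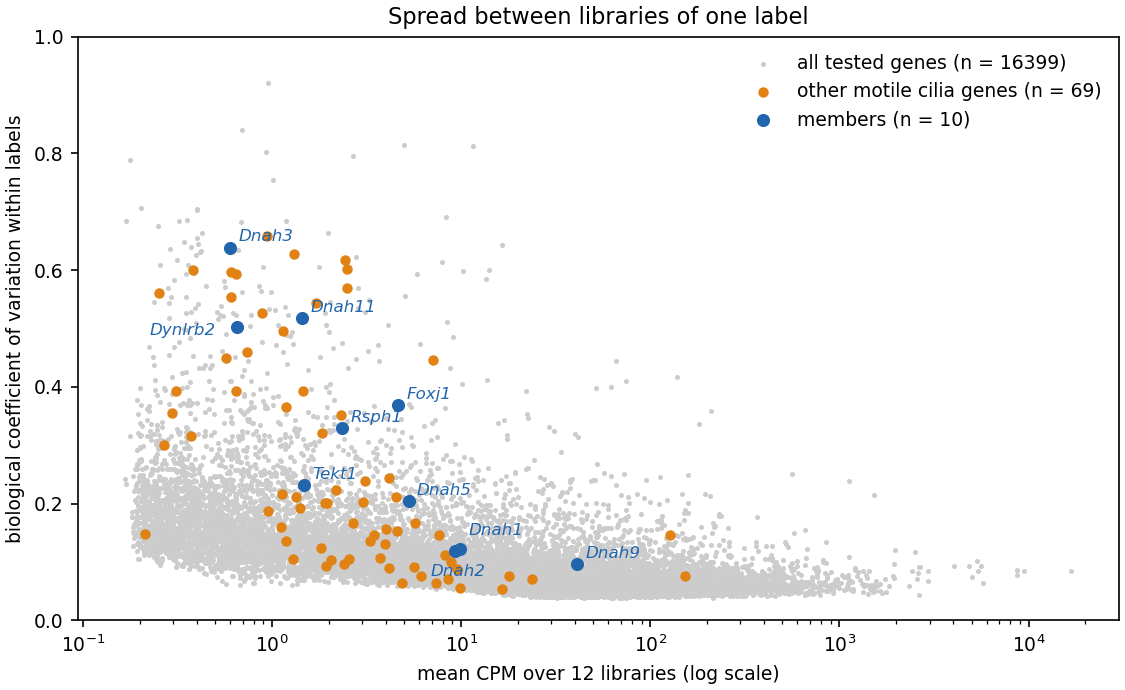
Biological coefficient of variation within labels against mean CPM (log axis) for all 16399 tested genes (grey), 69 other motile cilia genes (orange) and the 10 members (blue). *Dnah3*, *Dnah11*, *Dynlrb2* and *Foxj1* lie far above the genes of like level, while *Dnah1*, *Dnah2* and *Dnah9* lie near them.

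The variable members rose and fell together. After the label means were removed, the 21 pairs among *Foxj1*, *Rsph1*, *Tekt1*, *Dynlrb2*, *Dnah3*, *Dnah5* and *Dnah11* had Pearson's r from 0.73 to 0.96 over 12 libraries, with a median of 0.837. Pairs of these 7 genes with *Dnah1*, *Dnah2* or *Dnah9* had a median r of 0.296, from -0.35 to 0.68. This split was made after the values were seen, and all libraries enter every pair, so these r values are given as a description. The co-variation was also present under each label taken separately, with a median r of 0.857 within the WT label and 0.870 within the KO label (n = 6 each). Without KO replicates 2 and 3 the median was 0.741 over 10 libraries.

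**Figure D4:**
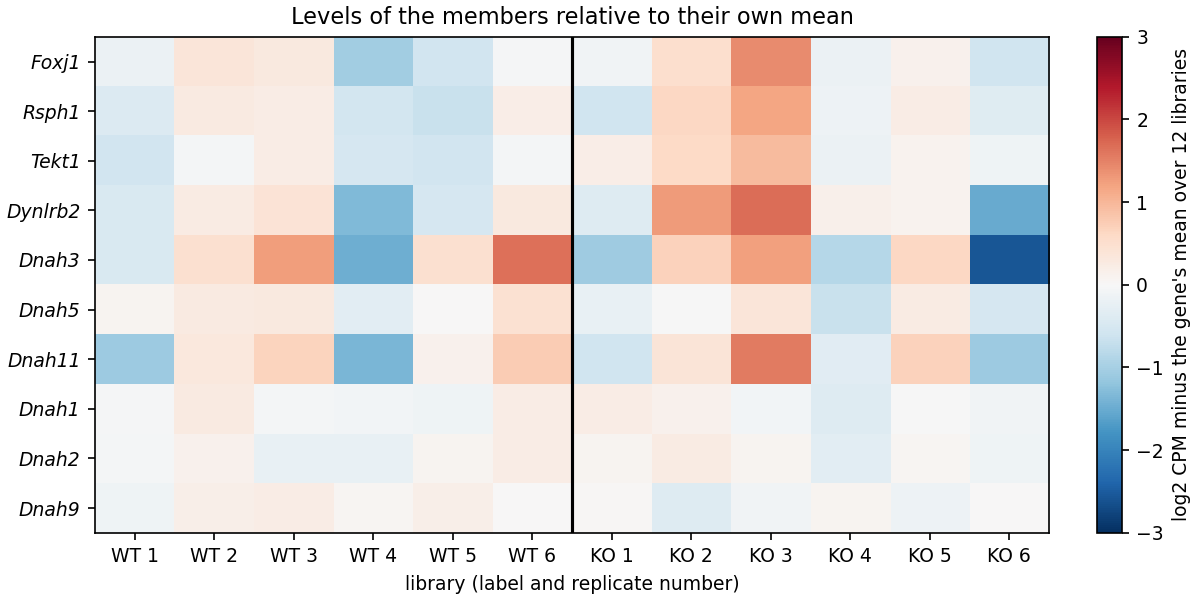
Log2 CPM of each member minus its own mean over the 12 libraries, with the 6 libraries labelled WT on the left and the 6 labelled KO on the right (red higher, blue lower than the gene's mean). The upper 7 genes share high values in KO replicate 3 and low values in WT replicate 4, whereas *Dnah1*, *Dnah2* and *Dnah9* stay close to their means.

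Tested against *Foxj1* on log2 CPM, 5 of the other 9 members were related to it over 12 libraries at an adjusted p under 0.05 (Pearson's r, permutation test, Benjamini-Hochberg over 9 relations). *Dynlrb2* had r = 0.924 (Spearman's rho = 0.909, permutation p = 1e-05 for r, the smallest that the resamples can give, and 0.00014 for rho; adjusted p = 9e-05 and 0.00126). *Rsph1* had r = 0.910 and rho = 0.867 (permutation p = 5e-05 and 0.0005; adjusted p = 0.000225 and 0.00225). The r values of *Tekt1*, *Dnah11* and *Dnah3* were 0.865, 0.817 and 0.655, with rho of 0.825, 0.804 and 0.720 and adjusted permutation p for r of 0.00099, 0.00184 and 0.0336. *Dnah5* (r = 0.585), *Dnah2* (0.435), *Dnah1* (0.229) and *Dnah9* (-0.350) did not pass by r. The label means were kept in these tests, unlike in the pairs described above. With label means removed, r with *Foxj1* was 0.812 for *Dnah5* and 0.810 for *Dnah3*. By rho *Dnah5* also passed (rho = 0.671, adjusted permutation p = 0.0307), so that 6 relations passed by rho. When the 2 libraries farthest from the median of *Foxj1*, KO replicate 3 and WT replicate 4, were left out, r was 0.861 for *Rsph1* and 0.872 for *Dynlrb2* and only these 2 relations passed by r. By rho these 2 and *Tekt1* passed (rho = 0.770, adjusted permutation p = 0.0368). The r of *Tekt1*, *Dnah11* and *Dnah3* was then 0.721, 0.600 and 0.583, and the relations of *Dnah11* and *Dnah3* passed by neither measure. Without KO replicates 2 and 3 the same 2 relations passed by r, and 7 passed by rho. Within the KO label 5 of 9 relations passed by r in an exact permutation test over 6 libraries, and within the WT label 0 of 9, where *Dynlrb2* came nearest (r = 0.942, exact permutation p = 0.00556, adjusted p = 0.05). By rho 0 of 9 passed within either label.

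Promoter sequence was looked up for the members, several of which moved together, because RFX factors act beside Foxj1 on motile cilia genes. RefSeq promoters (GRCm38.p6, 250 bases before to 50 bases after each start) were found for 7 of the 10 members, and *Foxj1*, *Rsph1* and *Dnah3* were not among them. The letters GTTGCC, a core of the motif bound by RFX factors, were searched on both strands and occur in 12.5% of the 32851 promoters in the table. They were present in the promoters of *Dynlrb2*, from -51 to -46 bases of its start, and *Tekt1*, at -35 to -30 and -15 to -10. The forkhead core TAAACA, searched the same way, occurs in 13.4% of promoters and was present for *Dnah5*, *Dnah11* and *Dnah1*. The windows below show the motif in capitals, written 5′ to 3′ on the strand of the gene, for *Dynlrb2* and *Tekt1* because they varied with *Foxj1* and for the 3 heavy chains because only some of these did.
Dynlrb2, chr8:116504952-116504981, plus strand: acttcctgcctgGTTGCCtagcaacggggg
Tekt1, chr11:72361880-72361909, minus strand: tgcgtccgtccgGTTGCCatagagaccgca
Dnah11, chr12:118199212-118199241, minus strand: ttcatccacagtTAAACAttgagcatttag
Dnah5, chr15:28203651-28203680, plus strand: ttctcttgttgcTAAACAtgattaagaggc
Dnah1, chr14:31323860-31323889, minus strand: tgaaaactttgcTGTTTAggggagccggta

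In *Dnah1*, the steady gene of the 3, the letters stand in reverse orientation and after the start, from 19 to 24 bases. For the other motif, the GTTGCC match of *Tekt1* at -35 to -30 is in reverse orientation too. Whether orientation bears on the spread between libraries was not tested. A match of letters does not show that a factor binds there, and these coordinates belong to a later build than the counts.

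The genes with the pattern most like the members were named by how many members they accompanied among the 50 nearest non-member genes (Pearson's r on log2 CPM with label means removed, 12 libraries). *Gm626* and *Ccdc153* were near 7 members each, with a mean r of 0.914 and 0.913. *Cfap52*, *Tmem212*, *Ak7* and *Dnali1* were near 6 members each, and *Mapk15*, *4932418E24Rik*, *Folr1* and *Gm867* near 5. Of the 45 genes near at least 3 members, 12 were in the lists of other motile cilia genes.

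Those lists held 79 further genes of the motile axoneme and its assembly, of which 78 were found and 69 tested. At 1% FDR, 1 of the 69 was lower (*Cfap44*) and 1 higher (*Dnah6*) in the KO label, with 4 lower and 1 higher at an unadjusted p under 0.05. Over all tested genes the shares lower and higher were 2.62% and 0.0244% at 1% FDR. At the unadjusted threshold they were 9.35% and 4.34%. The median log2 fold change of the 69 was 0.15, beside 0.00 over all tested genes, and was not taken without KO replicates 2 and 3. Like the members, many followed *Foxj1*: 22 of 69 (31.9%) had r of at least 0.8 with it (label means removed), beside 2.07% of all tested genes. Without KO replicates 2 and 3 the figures were 13 of 69 and 0.835%.

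*Dnah6* (ENSMUSG00000052861, chromosome 6, 72967600 to 73171645), an inner arm heavy chain, was higher in the KO label, in which the reads on *Gadd45a* were also higher. It ranged from 0.487 to 3.71 CPM under the WT label (median 2.82) and from 6.52 to 19.4 CPM under the KO label (median 11.7), from 27 to 202 and from 297 to 942 reads. The labels did not overlap, as for 0.183% of tested genes in this direction. The level differed by 2.31 ± 0.36 (SE) on the log2 scale (adjusted p = 0.00135, edgeR), and by 2.50 without KO replicates 2 and 3. *Gadd45a* ends at 66987451 on the same chromosome, 5980149 bases from *Dnah6*. Under the WT label *Dnah6* varied with *Foxj1* (r = 0.838, 6 libraries) and under the KO label it did not follow it (r = -0.370); the difference between these r values was not tested.

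Of the other tested heavy chains, 2 had r of at least 0.8 with *Foxj1*. *Dnah10* (0.847 to 3.32 CPM under the WT label, 0.779 to 5.96 CPM under the KO label) and *Dnah12* had r of 0.878 and 0.830. *Dnah7b* (4.64 to 6.97 and 3.82 to 7.25 CPM), an inner arm chain, had a log2 fold change of -0.04 (adjusted p = 0.945, edgeR). Its level is uncertain, since *Dnah7a* and *Dnah7c* are near-identical copies annotated only in part. Among intermediate and light chains, led by *Dnal1*, *Dnai4* and *Dnai1*, *Dnal1* (136 to 179 and 138 to 158 CPM) and *Dnai4* (8.20 to 11.2 and 8.35 to 9.64 CPM) were steady, and *Dnali1* (0.433 to 1.56 and 0.418 to 2.53 CPM), an inner arm light intermediate chain, had r = 0.927 with *Foxj1*. None of the 6 genes of that list and none of the 11 tested docking and assembly factors, led by *Spag1*, *Dnaaf5* and *Dnaaf2*, passed 1% FDR in edgeR, nor did any at an unadjusted p under 0.05. Among all tested genes 2.62% were lower and 0.0244% higher at 1% FDR, and 9.35% and 4.34% at the unadjusted threshold.

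*Cfap44*, an axonemal protein known from sperm flagella, was the gene of the tektin and ciliated cell list that was lower in the KO label. With *Efcab1* and *Tekt5* it was also among the most abundant of that list. It ranged from 8.74 to 11.9 CPM under the WT label and from 6.70 to 8.49 CPM under the KO label, without overlap, as for 3.12% of tested genes in this direction. The log2 fold change was -0.43 (adjusted p = 0.00657, edgeR), and without KO replicates 2 and 3 it was -0.46 (adjusted p = 0.0203). With 1 library left out it ranged from -0.46 to -0.37, with an adjusted p of up to 0.0264. The 24 tested genes of this list, *Cfap44* among them, had a median log2 fold change of 0.30. The sum over the 25 genes of the list was 60.8 and 77.6 CPM in KO replicates 2 and 3. It was 37.0 to 53.9 CPM in the other libraries labelled KO and 39.2 to 55.3 CPM under the WT label. The median sum was 47.2 CPM under the KO label and 49.8 CPM under the WT label. The most specific ependymal members of the list had wide ranges. *Ccdc153* ranged from 0.469 to 3.45 CPM and from 0.912 to 7.46 CPM under the WT and KO labels (log2 fold change 0.68, adjusted p = 0.664, edgeR), and *Tmem212* from 0.270 to 1.67 CPM and from 0.399 to 3.76 CPM. Of the radial spoke and central pair genes, *Ccdc39*, *Gas8* and *Rsph9* were the most abundant. In edgeR 0 of 17 passed 1% FDR, beside 2.62% of all tested genes lower and 0.0244% higher. At an unadjusted p under 0.05, 1 was lower and 0 higher, beside 9.35% and 4.34%.

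Genes of the primary cilium and intraflagellar transport and of cytoplasmic dynein gave a reference outside the genes of the motile axoneme. Of 30 tested genes of the primary cilium and intraflagellar transport, 2 were lower and 0 higher in the KO label at 1% FDR, with 4 and 2 at an unadjusted p under 0.05. Over all tested genes the shares were 2.62% and 0.0244% at 1% FDR, and 9.35% and 4.34% at the unadjusted threshold. *Dync2h1*, the motor of retrograde intraflagellar transport, fell from 36.8 ± 2.68 to 30.2 ± 1.67 CPM (SD, n = 6; log2 fold change -0.29, adjusted p = 0.00363, edgeR). *Rpgrip1l*, a protein of the transition zone, fell from 28.3 ± 2.27 to 23.3 ± 1.59 CPM (log2 fold change -0.28, adjusted p = 0.00981, edgeR). With the exonic length offset the log2 fold changes shrank to -0.15 and -0.20 and neither passed, with adjusted p of 0.109 and 0.0248 (edgeR). Without KO replicates 2 and 3 they were -0.27 and -0.26, close to those with all libraries, and neither passed, with adjusted p of 0.0200 and 0.0571 (edgeR). The genes of this list, led by *Ahi1*, *Kif3a* and *Kif3b*, varied little between libraries, since the median BCV of the list was 0.0634. Over 12 libraries (label means removed) 0 of 30 had r of at least 0.8 with *Foxj1*, beside 2.07% of all tested genes.

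The 15 genes of cytoplasmic dynein and dynactin, led by *Dync1h1*, *Pafah1b1* and *Dynll2*, had 0 calls in either direction in edgeR at 1% FDR, beside 2.62% of all tested genes lower and 0.0244% higher. At an unadjusted p under 0.05, 1 was lower and 0 higher, beside 9.35% and 4.34%. For the motile cilia, primary cilium and cytoplasmic dynein lists and the markers of other cells, DESeq2 gave the same counts at 1% FDR as edgeR. *Dynlrb1*, the cytoplasmic counterpart of *Dynlrb2*, held 77.3 to 94.1 CPM under the WT label and 78.6 to 88.7 CPM under the KO label (log2 fold change -0.02, adjusted p = 0.912, edgeR). *Dync1h1* held 761 to 873 and 707 to 843 CPM (log2 fold change -0.06, adjusted p = 0.712, edgeR). The 1.22-fold range of *Dynlrb1* contrasts with the 9.13-fold range of *Dynlrb2*.

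Markers of other cells were set beside *Foxj1*, since a dissected hippocampus can hold varying amounts of neighbouring tissue. Of 48 tested markers in 7 lists, 1 was lower in the KO label at 1% FDR and 0 were higher, beside 2.62% and 0.0244% of all tested genes. The lower one was *Zbtb20*, a transcription factor of hippocampal neurons (log2 fold change -0.43, adjusted p = 0.00113, edgeR). With the length offset its log2 fold change was -0.20 (adjusted p = 0.0542, edgeR). At an unadjusted p under 0.05, 1 marker was lower and 16 were higher, beside 9.35% and 4.34% of all tested genes (edgeR). These 16 included all 6 oligodendrocyte markers, among them *Mbp* and *Mobp*, and 6 of 8 thalamic markers, led by *Prkcd*, *Plekhg1* and *Rora*. They also included 3 of 8 astrocyte markers and 1 of 9 choroid plexus markers. All 8 astrocyte markers had a positive log2 fold change. The thalamic excess of KO replicates 2 and 3 and the oligodendrocyte excess of KO replicate 3 enter these counts. Choroid plexus markers, led by *Kl*, *Ttr* and *Prlr*, summed to 39.9 to 68.4 CPM under the WT label and 32.8 to 86.0 CPM under the KO label, with KO replicates 3 and 1 highest. Much of this sum was *Kl*, with a mean of 32.2 CPM and a BCV of 0.115, the lowest of the tested plexus markers. The BCV of the others ran from 0.179 (*Prlr*) to 0.840 (*Otx2*), so the sum understates their spread. No choroid plexus marker was at 0 throughout, and *Ttr*, its secreted transthyretin, ranged from 2.82 to 45.3 CPM over the 12 libraries. The sums for astrocytes (1921 to 2333 CPM, led by *Slc1a3*, *Aldoc* and *Gfap*), microglia (227 to 273 CPM, led by *Csf1r*, *Cx3cr1* and *P2ry12*) and endothelium (146 to 198 CPM, led by *Flt1*, *Slco1a4* and *Cldn5*) were level by comparison.

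**Figure D5:**
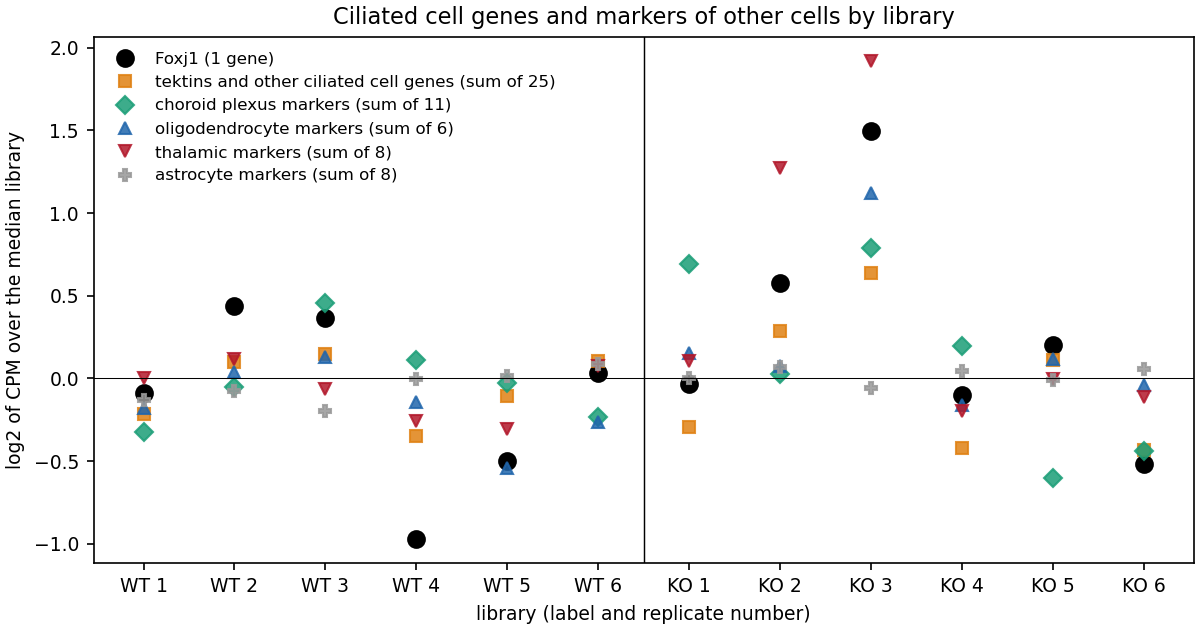
Log2 of the level over the median of the 12 libraries for *Foxj1* (black) and for the summed CPM of ciliated cell, choroid plexus, oligodendrocyte, thalamic and astrocyte genes, by library, WT labels left of the line and KO labels right. KO replicate 3 is highest for *Foxj1*, ciliated cell, choroid plexus, oligodendrocyte and thalamic genes, whereas the astrocyte sum is nearly level.

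Against single markers of other cell types or regions (p-values adjusted over 6 relations), *Foxj1* was related to *Tcf7l2* of the thalamus by r over 12 libraries (r = 0.762, rho = 0.629, permutation p = 0.00118 and 0.0322, adjusted p = 0.00387 and 0.0929). For *Aqp4*, *Ttr*, *Cldn5* and *Prox1* r was 0.453, 0.407, 0.0777 and -0.0102. Without the 2 libraries farthest from the median of *Foxj1*, r was 0.547 for *Tcf7l2*, and without KO replicates 2 and 3 it was 0.356. None of the 6 relations passed in either case, nor within the WT label, and that of *Tcf7l2* over 12 libraries rested on KO replicate 3. Within the KO label, *Tcf7l2* passed by r (r = 0.888, exact permutation p = 0.00278, adjusted p = 0.0167). *Foxj1* and *Dynlrb2*, by contrast with *Tcf7l2*, kept r = 0.872 without KO replicates 2 and 3. The thalamic markers were not alike in this. With label means removed, *Prkcd* had r = 0.882 with *Foxj1* over 12 libraries. Its r was 0.742 without KO replicates 2 and 3 and 0.965 within the WT label. The median r of the 8 thalamic markers was 0.735, 0.237 and 0.215 in the same sets of libraries. The part of neighbouring tissue in the levels of the members was not tested.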

How the data were processed

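Poly(A) RNA-seq of 12 hippocampi was used, 6 per label, grouped by the sample labels. The authors prepared stranded libraries, mapped single-end reads to NCBIM37/mm9 with TopHat 1.4.1 and Ensembl release 66, and deposited whole read counts per gene from htseq-count (HTSeq 0.5.4p3, reverse strand), without normalization or pooling. Reads without a gene (13.0% to 15.8% of each library) and ambiguous reads (0.626% to 0.694%) were left out. The submitters' processing notes also name SAMtools and DESeq 1.16.0.

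Symbols came from GENCODE M1 (Ensembl 65, the same build), in which 37205 of 37991 IDs matched and which gave the exonic lengths. For list genes with several IDs, the protein-coding ID with most reads was used. Counts were filtered by expression, scaled by TMM and compared with edgeR 4.0.16 (R 4.3.3; quasi-likelihood, no covariates, 1% FDR as in the paper). Log2 CPM used a prior count of 2. Standard errors were taken as the fold change on the log2 scale divided by the root of the F statistic. Relations were tested by permutation in Python 3.11.15 with numpy 2.4.6 (100000 resamples, or all 720 pairings of 6 libraries), single genes by exact permutation over 924 splits (smallest p 0.00216), and figures were drawn with matplotlib 3.10.9. All tests are two-sided. Alternatives were DESeq2 1.42.0, RLE or total counts, other filters, 5% FDR, the replicate number as a block, a length offset (spline, 5 degrees of freedom) and leaving out libraries. Leaving out KO replicates 2 and 3 together was added after the data were seen.

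The members and gene lists were chosen with earlier results of these data known. Genes named are the members, *Gadd45a*, *Dnah6*, *Dync1h1*, *Dynlrb1*, in every other list those past 1% FDR (at most 5) and the 3 of highest mean CPM, and the 10 genes nearest to the most members. Other genes named were chosen after their values were seen. The values of 1 marker gene are not reported here. Tested on simulated data in which 200 genes had a 2-fold change, edgeR recovered 196 with 0 others among 16442 tested, and DESeq2 196 with 2 others. The simulated spread was the same for every gene and smaller than that of the variable members. The share recovered therefore does not give the power for those members. At this depth 1 read is 0.0180 CPM in the deepest library, and intervals of fold changes cover the spread between mice of one label.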

Additional observations from a re-analysis of the deposited data

How the results depend on the processing

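The counts of members called, 0 lower and 0 higher, were the same under all 22 alternatives, as were the call of *Gadd45a* (log2 fold change 3.02 to 3.16) and that of *Dnah6* (2.10 to 2.50, adjusted p from 1.03e-05 to 0.00718). With both KO replicates 2 and 3 left out, a choice made after seeing the data, the log2 fold changes of *Foxj1*, *Rsph1*, *Dynlrb2*, *Dnah2* and *Dnah11* reversed to -0.0434, -0.0891, -0.18, -0.0674 and -0.30. That of *Dnah1* reversed to 0.0418 with the length offset and 0.0348 with the length offset and the replicate block. With 1 library left out, *Dnah1* ranged from -0.12 to 0.00260, *Dnah2* from -0.0254 to 0.0808 and *Dnah11* from -0.16 to 0.45. *Dnah3* could not be tested with at least 10 counts in every library. Of the other motile cilia genes, 0 were lower with total counts only, with the length offset and the replicate block, or without both libraries, and 0 to 1 with 1 library left out. Of the primary cilium genes, 1 was lower with RLE size factors, at least 10 counts, no filter or total counts only, 0 with the length offset, with or without the replicate block, or without both libraries, and 0 to 2 with 1 library left out. Among markers of other cells, 0 were lower with the length offset, with or without the block. By r, *Foxj1* had 2 relations with members and 0 with markers without both libraries, and 4 to 6 and 0 to 2 with 1 library left out, the 0 being without KO replicate 3. Over all genes, 430 lower and 4 higher became 667 and 18 with DESeq2, 272 and 9 with the length offset, 294 and 10 with the length offset and the block, 726 and 20 at 5% FDR, 198 and 3 without both libraries, and 239 to 467 lower with 1 library left out. With the replicate block 509 were lower and 5 higher, and 0 members were called. Libraries with equal numbers correlated from -0.0761 to 0.262, and 1 of 6 best with its own number, so that the numbers were not taken as pairs. The causes were not tested. Depth limits *Dnah3* and *Dynlrb2*, with as few as 4 and 10 reads.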

Other observations

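The regulators of multiciliation were examined beside the ciliated cell genes. Of *Rfx2*, *Rfx3*, *Gmnc*, *Ccno* and *Trp73*, the 5 of 6 that were tested, 0 had r of at least 0.8 with *Foxj1* over 12 libraries (label means removed), beside 2.07% of all tested genes. Within the WT label 1 did (*Trp73*, r = 0.905) and within the KO label 1 (*Rfx2*, r = 0.916), beside 2.85% and 8.60%. In edgeR 0 passed 1% FDR, beside 2.62% of all tested genes lower and 0.0244% higher. At an unadjusted p under 0.05, 1 was lower and 0 higher, beside 9.35% and 4.34%. *Rfx3*, a ciliary transcription factor and the most abundant of the list, ranged from 124 to 162 CPM under the WT label and from 78.0 to 137 CPM under the KO label (log2 fold change -0.30, adjusted p = 0.267, edgeR). *Trp73* (5.65 to 9.08 and 6.42 to 9.38 CPM) had r = 0.669 with *Foxj1*, and 0.799 without KO replicates 2 and 3. *Rfx2* (2.57 to 3.87 and 3.00 to 4.61 CPM) had r = 0.670, and 0.433 without KO replicates 2 and 3. For *Rfx3*, *Gmnc* and *Ccno* r was 0.00527, -0.0713 and -0.291.

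*Folr1*, a folate receptor that was listed among the choroid plexus markers, followed the ciliated cell genes. It ranged from 0.0541 to 0.643 CPM under the WT label and from 0.152 to 1.43 CPM under the KO label. With label means removed, its r with *Foxj1* was 0.937 over 12 libraries and 0.899 without KO replicates 2 and 3, beside 0.403 and 0.0231 for *Ttr*. KO replicate 1 had 35.3 CPM of *Ttr*, the second highest level, with 0.255 CPM of *Folr1* and 3.94 CPM of *Foxj1*. *Folr1* was singled out because it was near 5 members, and these r values are a description.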
